A study of Mus musculus with 4 samples.

Results

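T cell, natural killer (NK) cell and immune checkpoint genes were examined in sarcomas of W/+ mice treated with or without arsenic trioxide (ATO). The 10 genes were taken by symbol (Ptprc, Cd3d, Cd3e, Cd4, Cd8a, Nkg7, Gzmb, Prf1, Pdcd1 and Cd274), and all 10 were found among the 56691 genes of the deposited table. RNA-seq was performed on 4 sarcomas, 2 from mice given ATO in the drinking water (35 mg in 1 L from day 90 until death, as the study's methods give it) and 2 from mice whose treatment is labelled PBS. Mice of both groups carried 1 mutant p53 allele, labelled p53R282W/+ after the human residue, in every cell of the body, and the study made the allele by CRISPR/Cas9 editing and calls its mice C57BL/6N. The labels do not give the age, the sex or the type of each sarcoma. For all 4 samples the labels also hold a growth protocol for cultured cells, which the methods do not describe for tumor tissue. Each library is 1 sarcoma, so that p-values measure the spread between 2 sarcomas per group.

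T cells recognize antigen through the T cell receptor, which signals through the CD3 chains, with CD4 or CD8 as a coreceptor. Cytotoxic T cells and NK cells kill a target cell by releasing perforin, which opens its membrane, and granzymes, proteases that start cell death inside it. PD-1, the product of Pdcd1, restrains activated T cells when it binds PD-L1, the product of Cd274, which tumor cells, macrophages and other cells can carry on their surface.

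Total counts ranged from 15259695 to 18134000 per sarcoma. ATO 2 had 14.7% of its counts on mitochondrial genes, against at most 2.59% elsewhere. Mesenchymal genes (Col1a1, Col1a2, Col3a1, Pdgfra, Pdgfrb and Vim), which mark the connective tissue lineage, had a summed FPKM between 1166 and 4861. FPKM is the read count scaled for exon length and library total and serves here to compare genes. CPM is the count scaled for library total after TMM normalization, is not scaled for length and serves to compare sarcomas. A count of 0 allows a level of up to between 0.151 and 0.24 CPM, which covers counting error only.

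All 10 genes were lowest in PBS 1 by CPM, a position that PBS 1 held in 28.4% of the 17188 genes tested. In the other 3 sarcomas the order differed between genes. By CPM, Ptprc, Cd3e, Gzmb and Prf1 were highest in PBS 2, Cd3d, Cd4, Pdcd1 and Cd274 in ATO 2, and Cd8a and Nkg7 in ATO 1. By FPKM, which lacks the TMM factor, Cd3d was highest in PBS 2 and Cd4 in ATO 1. It follows that PBS 2 lay above PBS 1 in all 10 genes, against 51.2% of all genes tested. The median log2 ratio of PBS 2 to PBS 1 was 1.66 on CPM + 1, against 0.024 over all genes tested. The 10 genes were read from the same 4 libraries and some come from the same cells, so they are not 10 independent observations. In bulk tissue, fewer cells of a type and less RNA per cell cannot be told apart.

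**Figure D1:**
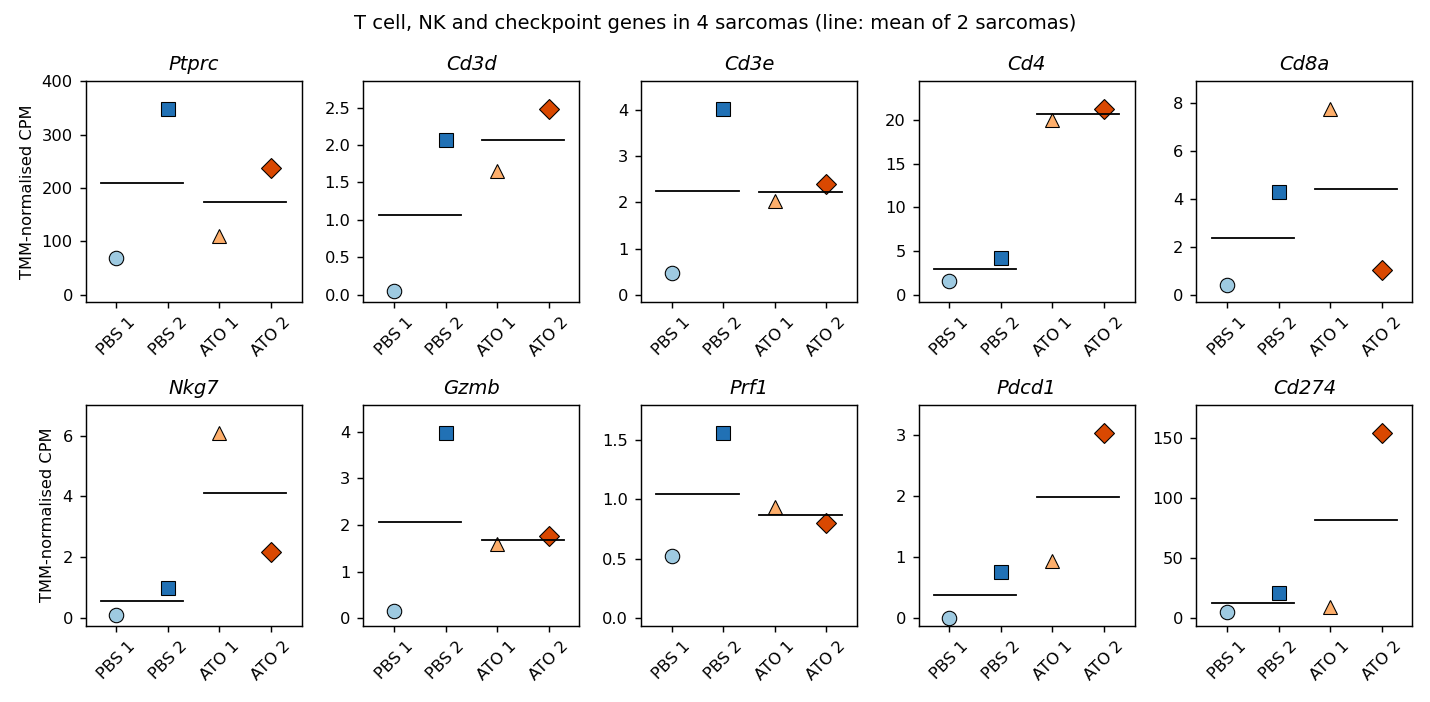
TMM-normalised CPM (linear axes, 1 scale per gene) of the 10 genes in PBS 1, PBS 2, ATO 1 and ATO 2, with points for single sarcomas and a line for the mean of each group of 2. PBS 1 is the lowest point in all 10 panels, and both ATO points lie above both PBS points for Cd4, Nkg7 and Pdcd1.

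The comparison of ATO with PBS used the quasi-likelihood test of edgeR, and p-values were adjusted by the Benjamini-Hochberg method over 17188 genes. All 10 genes passed the filter on low counts, and 0 of 10 passed an adjusted p of 0.05, as did 0.0% of all genes tested. At an unadjusted p under 0.05 there was 1 gene, Cd4, against 8.51% of all genes. In DESeq2, 1 of 10 (Cd4) passed, against 4.13% of the 18277 genes it tested. Both ATO sarcomas lay above both PBS sarcomas in 3 of 10 genes (Cd4, Nkg7 and Pdcd1), against 19.7% of all genes, and below them in 0 of 10, against 20.2%. In 4 of 10 genes (Ptprc, Cd3e, Gzmb and Prf1) both ATO sarcomas lay between the PBS sarcomas, against 15.2% of all genes. The fitted level was higher in ATO for 6 of 10 genes, against 49.2%, and the median log2 fold change was 0.93, against -0.016 over all genes. Without PBS 2 the fitted level was higher in ATO for 10 of 10 genes, with a median of 3.53. Over all genes in that fit the share was 55.3% and the median 0.147. The 10 of 10 adds nothing new, because PBS 1, the lone PBS sarcoma left, was lowest in all 10 genes. Without PBS 1 the fitted level was higher for 5 of 10, with a median of 0.018, against 53.5% and 0.0798 over all genes. With 2 sarcomas against 2, an exact permutation test of a single gene cannot give a p below 0.333.

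**Figure D2:**
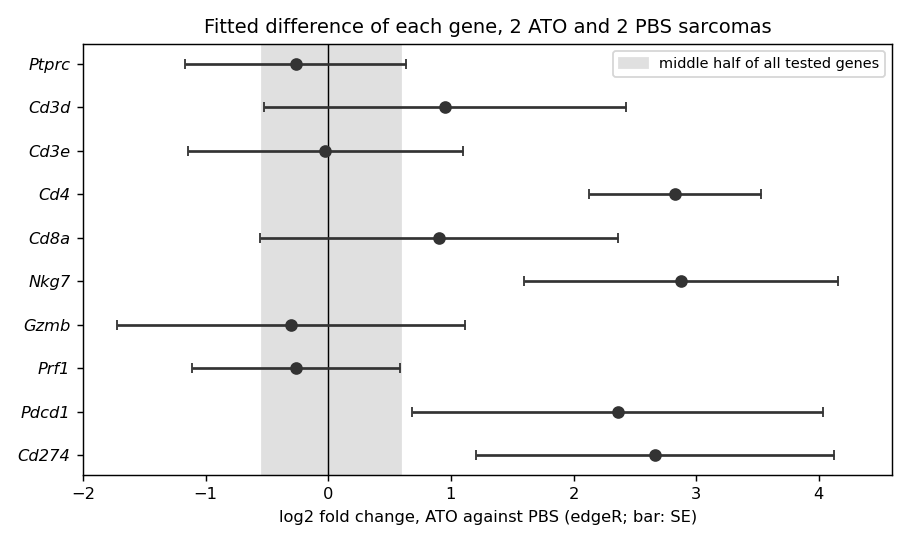
Log2 fold change, ATO against PBS, of the 10 genes with its standard error, from edgeR. The grey band spans the 25th to the 75th percentile of all genes tested, -0.54 to 0.59, and the estimates of Ptprc, Cd3e, Gzmb and Prf1 lie inside it.

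Ptprc (ENSMUSG00000026395; chromosome 1 of GRCm38, 138062861 to 138175708, minus strand) encodes CD45, a phosphatase on all leukocytes. Its FPKM was 4.12 in PBS 1, 21.01 in PBS 2, 6.03 in ATO 1 and 10.6 in ATO 2. PBS 2 and PBS 1 thus differed by 5.03 times on CPM and enclosed both ATO sarcomas. ATO sarcomas averaged 174 ± 90.02 CPM (SD, n = 2) and PBS sarcomas 209 ± 197 CPM (SD, n = 2), with a log2 fold change of -0.27 (standard error 0.90, adjusted p 0.951 in edgeR). Without ATO 1 it was 0.17 and without PBS 2 it was 1.32. Of the other genes tested, Cd247, the CD3 zeta chain, had the profile over the 4 sarcomas nearest to that of Ptprc. The Euclidean distance between centred log2 values of CPM + 1 was 0.107. Scarf1, Stx11, Ccr7 and Dusp1 followed, with distances up to 0.192. Cd247 had only 7 counts in PBS 1 and 115 in PBS 2, which differed by 15.7 times on CPM, against 5.03 times for Ptprc. Its nearness thus depends on the 1 added to the CPM.

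The CD3 chains carry the signal of the T cell receptor into the cell, and Cd3d and Cd3e lie close together on chromosome 9. Cd3d (ENSMUSG00000032094; 44981786 to 44987339, plus strand) had a count of 1 in PBS 1, 41 in PBS 2, 30 in ATO 1 and 31 in ATO 2. The exact 95% Poisson intervals were 0.0253 to 5.57 for the count in PBS 1 and 29.4 to 55.6 for that in PBS 2. These intervals cover counting error only and not the spread between sarcomas. PBS 1 had the lowest count, and the other 3 sarcomas had 30 to 41. Cd3e (ENSMUSG00000032093; 44998740 to 45009627, minus strand) had a count of 9 in PBS 1, 80 in PBS 2, 37 in ATO 1 and 30 in ATO 2, or an FPKM of 0.13, 1.09, 0.50 and 0.48. Its log2 fold change was -0.024 (standard error 1.12, adjusted p 0.996 in edgeR), and that of Cd3d was 0.95 (SE 1.48, adjusted p 0.881). Without PBS 1 the value of Cd3d was -0.0045, and that of Cd3e was 0.083 without ATO 1 and 2.20 without PBS 2. An antisense gene (Gm48719) overlaps Cd3e, with at most 3 counts in a sarcoma. The genes nearest to Cd3e in profile were Lax1, an adaptor that dampens antigen receptor signaling, Cpeb1, Gm12655, Kcnc2 and Cd9, at distances of 0.0927 to 0.147. At the low level of Cd3e these distances, too, depend on the 1 added to the CPM.

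Promoters are shown for Cd3d and Cd3e, neighbouring genes of the same complex that were both lowest in PBS 1. The sequences come from RefSeq on GRCm38.p6, where 9 of the 10 genes had an entry. Each is given 5′ to 3′ on the strand of the gene and ends at the base before the RefSeq start. Capitals mark a match to GGAAGT on either strand, the core bound by ETS factors.
Cd3d, chr9:44981536-44981785, plus strand: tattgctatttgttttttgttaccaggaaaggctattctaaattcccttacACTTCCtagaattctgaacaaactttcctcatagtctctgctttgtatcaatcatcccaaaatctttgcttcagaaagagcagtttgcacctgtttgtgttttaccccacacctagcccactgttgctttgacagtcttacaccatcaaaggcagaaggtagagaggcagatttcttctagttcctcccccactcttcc
Cd3e, chr9:45009612-45009861, minus strand: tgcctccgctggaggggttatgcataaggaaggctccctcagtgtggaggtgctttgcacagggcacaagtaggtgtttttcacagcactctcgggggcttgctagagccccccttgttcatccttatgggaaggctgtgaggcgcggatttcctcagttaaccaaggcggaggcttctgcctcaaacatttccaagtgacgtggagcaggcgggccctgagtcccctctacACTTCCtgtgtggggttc
The match lay 199 bases before the start in Cd3d and 18 bases before it in Cd3e. Such a match was present in 19.7% of the 32851 RefSeq promoter windows of 250 bases and in 4 of the 9 entries (Ptprc, Cd3d, Cd3e and Prf1).

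Further genes of the T cell receptor complex were Cd3g, Cd247, Trac, Trbc1, Trbc2, Trdc and Tcrg-C1, the last of which was not matched by its symbol. Of the 6 genes found, 6 were tested and 0 passed the adjusted threshold. All 6 were lowest in PBS 1, against 28.4% of all genes tested. The fit put 5 higher and 1 lower under ATO (median log2 fold change 1.31). Trac, the constant region of the alpha chain, had an FPKM of 0.31 in PBS 1, 3.51 in PBS 2, 3.72 in ATO 1 and 3.92 in ATO 2. PBS 2 and both ATO sarcomas were thus close to each other. For Trbc2, a constant region of the beta chain, the FPKM was 0.50, 8.20, 3.83 and 3.6 in the same order. Trbc1 had 0.15, 2.38, 2.58 and 2.62, but Trbc1 and Trbc2 are near-identical and reads may be split between them. Trdc, the constant region of the delta chain, had a log2 fold change of 2.84 at an unadjusted p of 0.0203 (edgeR adjusted p 0.570) and is named here after its value was seen. Rag1, Rag2, Dntt and Ptcra, which immature T cells of the thymus and many thymic lymphomas express, summed to between 0 and 6 counts per sarcoma.

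The coreceptors Cd4 and Cd8a mark helper and cytotoxic T cells, and some dendritic cells and macrophages also carry CD4 or CD8. Cd4 (ENSMUSG00000023274; chromosome 6, 124864692 to 124888221, minus strand) had an FPKM of 0.43 in PBS 1, 1.16 in PBS 2, 4.99 in ATO 1 and 4.32 in ATO 2. The ATO sarcomas were close to each other and lay above both PBS sarcomas. ATO sarcomas averaged 20.7 ± 0.89 CPM (SD, n = 2) and PBS sarcomas 2.91 ± 1.88 CPM (SD, n = 2), a log2 fold change of 2.83 (standard error 0.70, unadjusted p 0.0113 and adjusted p 0.570 in edgeR). In DESeq2 its adjusted p was 0.0108, with a log2 fold change of 2.84, and over the alternatives the adjusted p ranged from 0.0108 to 0.872. The log2 fold change stayed between 2.28 and 3.70 with each sarcoma left out. Per kilobase, Cd4 was 9.98 and 8.97 times Cd3e in ATO 1 and ATO 2, but 3.37 and 1.06 times in PBS 1 and PBS 2. The summed FPKM of Cd3d, Cd3e, Cd3g and Cd247 overlapped between the groups, at 0.24 in PBS 1, 4.21 in PBS 2, 2.25 in ATO 1 and 3.29 in ATO 2. By CPM, both ATO sarcomas lay above both PBS sarcomas in 3 of the 6 further receptor complex genes and below in 0. Among 25 further T cell genes tested, 6 lay above and 3 below. The shares over all genes were 19.7% and 20.2%. Relative to Csf1r, the receptor that macrophages need to survive, Cd4 was 0.0656 and 0.0701 in ATO and 0.00559 and 0.0348 in PBS.

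Cd8a (ENSMUSG00000053977; chromosome 6, 71373427 to 71379173, plus strand) did not share this pattern. Its FPKM was 0.13 in PBS 1, 1.30 in PBS 2, 2.14 in ATO 1 and 0.23 in ATO 2. The ATO sarcomas differed by 7.44 times on CPM and the groups overlapped, with a log2 fold change of 0.90 (standard error 1.46, adjusted p 0.888 in edgeR). Without ATO 1 it was -1.18. Per kilobase, Cd4 was 18.5 times Cd8a in ATO 2, 2.34 times in ATO 1, 3.38 times in PBS 1 and 0.891 times in PBS 2.

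Of 26 further T cell surface, signaling and regulatory genes, 25 were tested and 0 passed, with 18 fitted higher under ATO and 7 lower (median log2 fold change 0.76). PBS 1 was the lowest sarcoma in 19 of the 25, against 28.4% of all genes tested. Tcf7 and Il7r were among the genes of this list with the highest mean FPKM. Tcf7, a transcription factor of naive T cells that other cells also use, was highest in PBS 1, with an FPKM of 13.66 against 5.88 in PBS 2, 4.79 in ATO 1 and 1.00 in ATO 2. Il7r, the receptor for a survival cytokine of T cells, had 0.61 and 3.11 in PBS and 1.99 and 5.79 in ATO. Cd28, the costimulatory receptor, had a log2 fold change of 2.09 at an unadjusted p of 0.0439 (edgeR adjusted p 0.577) and is named after its value was seen.

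Nkg7, Gzmb and Prf1 belong to the granules of cytotoxic T cells and NK cells. Nkg7 (ENSMUSG00000004612; chromosome 7, 43437073 to 43438249, plus strand), a membrane protein needed for granule release, had an FPKM of 0.13 in PBS 1, 1.22 in PBS 2, 6.70 in ATO 1 and 1.94 in ATO 2. Both ATO sarcomas lay above both PBS sarcomas, with ATO 1 well apart at 111 counts against 27 in ATO 2, 20 in PBS 2 and 2 in PBS 1. Its log2 fold change was 2.88 (standard error 1.28, adjusted p 0.604 in edgeR) and stayed between 1.93 and 5.20 with each sarcoma left out.

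Gzmb (ENSMUSG00000015437; chromosome 14, 56258838 to 56262260, minus strand) encodes granzyme B. It had an FPKM of 0.12 in PBS 1, 3.06 in PBS 2, 1.11 in ATO 1 and 1.00 in ATO 2, so that the PBS sarcomas enclosed the ATO sarcomas. Reads may be split with its close relative Gzmc. Its log2 fold change was -0.30 (standard error 1.42, adjusted p 0.967 in edgeR). Prf1 (ENSMUSG00000037202; chromosome 10, 61297833 to 61304680, plus strand), which encodes perforin, had an FPKM of 0.22 in PBS 1, 0.67 in PBS 2, 0.36 in ATO 1 and 0.25 in ATO 2. Its counts were only 10, 31, 17 and 10, and PBS 2 was again the highest. The log2 fold change was -0.26 (standard error 0.85, adjusted p 0.948 in edgeR). Without PBS 2 the values of Gzmb and Prf1 were 3.34 and 0.71.

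The promoters of Gzmb and Prf1 are shown because the proteins act together and the genes had the same order of the PBS sarcomas around the ATO sarcomas. Capitals mark a match to TGTGGT on either strand, the core bound by Runx factors of T cells and NK cells.
Gzmb, chr14:56262335-56262584, minus strand: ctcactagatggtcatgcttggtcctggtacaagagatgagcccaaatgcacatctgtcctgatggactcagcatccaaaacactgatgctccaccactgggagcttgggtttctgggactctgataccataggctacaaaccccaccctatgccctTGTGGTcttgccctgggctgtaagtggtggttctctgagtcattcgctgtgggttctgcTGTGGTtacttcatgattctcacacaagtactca
Prf1, chr10:61297586-61297835, plus strand: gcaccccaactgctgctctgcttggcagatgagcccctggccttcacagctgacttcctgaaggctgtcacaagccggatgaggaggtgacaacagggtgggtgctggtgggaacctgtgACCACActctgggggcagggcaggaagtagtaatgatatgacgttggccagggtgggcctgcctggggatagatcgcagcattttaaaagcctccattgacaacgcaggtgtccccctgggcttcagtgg
Gzmb held 2 matches, 93 and 34 bases before the RefSeq start, and Prf1 held 1, 130 bases before it. The RefSeq start of Gzmb lies upstream of its GENCODE start, and the bases that follow it were not found in a GENCODE transcript, so its distances hold for the RefSeq start alone. In all, 3 of the 9 entries held a match (these genes and Nkg7), against 14.0% of the promoter windows. The E-box CANNTG, also searched, was present in 7 of the 9 entries and in 66.2% of the windows.

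Of 17 further NK receptor and cytotoxic effector genes, 9 passed the filter on low counts and 0 passed the test, with 8 fitted higher in ATO and 1 lower (median log2 fold change 1.5 over these 9). Counts of 4 NK cell markers were low in every sarcoma. Ncr1, Klrb1c, Klre1 and Klrd1 summed to 18 counts in PBS 1, 86 in PBS 2, 94 in ATO 1 and 48 in ATO 2. The 4 CD3 chains summed to 17, 275, 126 and 165 counts in the same order. The genes with the highest mean FPKM were Srgn, Ccl5 and Cst7. Srgn, the granule proteoglycan that many leukocytes make, had an FPKM of 23.54 and 199.06 in PBS and 35.13 and 127.10 in ATO, in an order like that of Ptprc. Ccl5, a chemokine of activated T cells and NK cells, had 1.49 and 2.61 in PBS and 6.15 and 8.46 in ATO (log2 fold change 2.14, SE 0.72, edgeR adjusted p 0.570). Cst7, a protease inhibitor of cytotoxic granules, had 1.34 and 1.07 in PBS and 5.98 and 2.06 in ATO (log2 fold change 1.94, SE 0.79, adjusted p 0.592). Both ATO sarcomas thus lay above both PBS sarcomas in Ccl5 and Cst7, as in Nkg7, while Srgn, Gzmb and Prf1 overlapped between the groups. By CPM, 5 of the 9 tested had both ATO sarcomas above and 0 had both below, against 19.7% and 20.2% of all genes. Klrk1, the activating receptor NKG2D, had a log2 fold change of 3.63 at an unadjusted p of 0.0259 (edgeR adjusted p 0.570) and is named after its value was seen. In this list 2 of the 9 genes tested had an unadjusted p under 0.05 in edgeR, against 8.51% of all genes.

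Pdcd1 (ENSMUSG00000026285; chromosome 1, 94038305 to 94052553, minus strand) encodes the checkpoint receptor PD-1. It had a count of 0 in PBS 1, 15 in PBS 2, 17 in ATO 1 and 38 in ATO 2, or an FPKM of 0, 0.43, 0.48 and 1.29. Both ATO sarcomas lay above both PBS sarcomas, but ATO 1 exceeded PBS 2 by only 2 counts. The mean was 1.99 ± 1.49 CPM (SD, n = 2) under ATO and 0.378 ± 0.534 CPM (SD, n = 2) under PBS, and the log2 fold change was 2.36 (standard error 1.68, adjusted p 0.726 in edgeR). Without PBS 1 it was 1.38 and without PBS 2, where the lone PBS sarcoma has a count of 0, it depends on the prior count.

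Cd274 (ENSMUSG00000016496; chromosome 19, 29367455 to 29388095, plus strand) encodes PD-L1. Its FPKM was 1.52 in PBS 1, 6.34 in PBS 2, 2.60 in ATO 1 and 34.92 in ATO 2. ATO 2 thus stood apart from the other 3 sarcomas, while ATO 1 lay below PBS 2. The mean was 82.0 ± 103 CPM (SD, n = 2) under ATO and 12.9 ± 11.1 CPM (SD, n = 2) under PBS, with a log2 fold change of 2.66 (standard error 1.46, adjusted p 0.659 in edgeR). Without ATO 2 the log2 fold change was -0.45, so that the direction rested on that sarcoma. In the same sarcoma Cd274 was 3.29 times Ptprc per kilobase, against 0.302 to 0.432 times in the other 3. An antisense gene (AC119228.1) overlaps 11055 bases of Cd274 and had 71 counts in ATO 2 and 7 to 35 in the others, and reads of the pair cannot be told apart, because the sources do not say whether counting used strand.

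Around the start of Cd274, 21 other tested genes begin within 600 kb. This window was chosen after the values were seen. The log2 ratio of ATO 2 to the mean of the other 3 sarcomas, on CPM + 1, was 3.61 for Cd274. It was 0.105 for Jak2, a kinase of cytokine receptors, 0.943 for Plgrkt, 0.422 for Ric1 and -0.16 for Ermp1. Only Il33, an alarm cytokine of stromal cells, also exceeded 2 among the 22 genes, with 3.06.

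**Figure D3:**
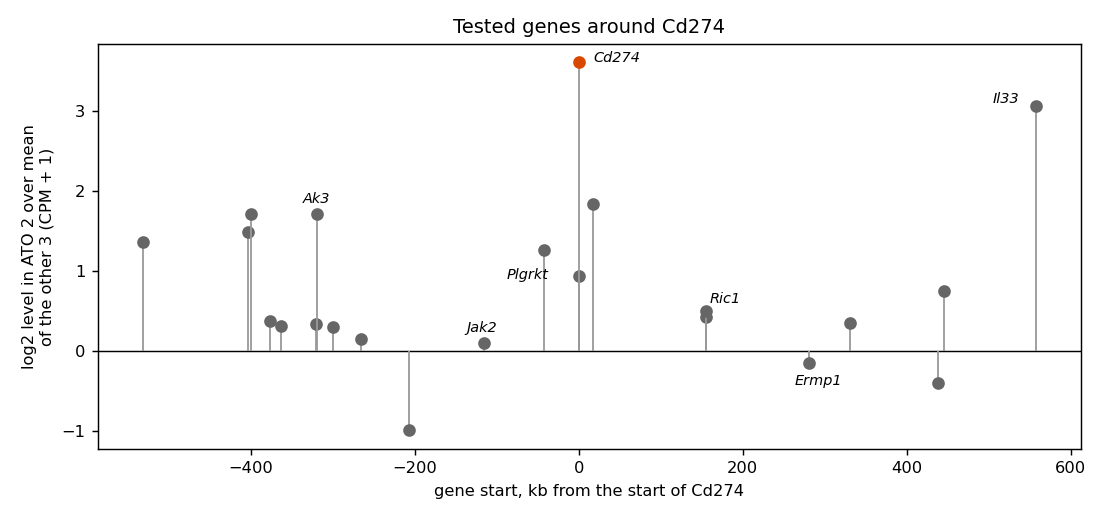
Log2 ratio of the TMM-normalised CPM (+ 1) in ATO 2 to the mean of the other 3 sarcomas, for the 22 tested genes that start within 600 kb of Cd274, by distance in kb. Cd274 (orange) is at 3.61 and Il33 at 3.06, and the others lie under 2.

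Plgrkt, a plasminogen receptor, is read in the opposite direction and starts 0.065 kb from Cd274 in the GENCODE annotation. The stretch between the annotated Plgrkt gene and the RefSeq start of Cd274 is shown because it separates genes that differed in ATO 2. It has 47 bases with 61.7% G and C, against a median of 52.4% over all promoter windows. Those windows have 250 bases and reach further from the start, so the 2 values are not a like comparison.
Cd274, chr19:29367391-29367437, plus strand: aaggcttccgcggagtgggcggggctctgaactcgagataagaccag
The GAS motif TTCNNNGAA, an element of the interferon gamma response, and the ISRE core, bound by interferon regulatory factors, were searched on both strands and not found in the window of 250 bases before the start, and were present in 7.02% and 2.98% of all promoter windows. Plgrkt had 30.4 and 25.1 CPM in PBS and 41.2 and 62.9 CPM in ATO, a narrower range than that of Cd274.

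Of 19 further checkpoint receptors and ligands, 16 were tested and 0 passed in edgeR, with 8 fitted higher in ATO and 8 lower (median log2 fold change 0.086). Lgals9, a ligand of the checkpoint receptor TIM-3, had an FPKM of 34.08 and 74.55 in PBS and 50.60 and 30.63 in ATO. Vsir, the checkpoint receptor VISTA of myeloid and T cells, had 21.70 and 46.69 in PBS and 30.17 and 32.96 in ATO. These genes overlapped between the groups. Cd276, the ligand B7-H3 that many solid tumors carry, had 39.69 and 61.00 in PBS and 6.26 and 9.24 in ATO, so that both ATO sarcomas lay below both PBS sarcomas. Its log2 fold change was -2.39 (standard error 0.51, unadjusted p 0.00656 and adjusted p 0.570 in edgeR), with an adjusted p of 0.0141 in DESeq2 and of 0.0485 when edgeR was run on unfiltered genes.

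Interferon gamma, a product of activated T cells and NK cells, induces Cd274 in many cells, and 7 genes of its response, Gbp2 and Irf1 among them, were read beside it. Of these, 7 were tested and 0 passed, with 6 fitted higher in ATO and 1 lower (median log2 fold change 0.40). Their summed FPKM was 48.6 in PBS 1, 60.0 in PBS 2, 29.8 in ATO 1 and 101 in ATO 2. Gbp2, a guanylate binding protein, had 36.57 in ATO 2 against 8.02 to 17.80 in the others. Irf1, a transcription factor of the response, had 16.19 and 24.85 in PBS and 9.21 and 23.53 in ATO. ATO 2 was the highest for Gbp2, as for Cd274, and PBS 2 for Irf1 by FPKM. Over the 5 related lists together, 75 of 76 genes were found and 63 tested, and 0 passed. At an unadjusted p under 0.05 in edgeR there were 5 higher in ATO and 1 lower, against 8.51% of all genes. Trdc, Cd28 and Klrk1 are among the 5. Of the 63, 45 were fitted higher in ATO and 18 lower, against 49.2% higher over all genes. PBS 1 was lowest in 45, against 28.4% of all genes tested.

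The genes were also set against Ptprc in the same sarcoma, a scale chosen after the values were seen that takes the leukocyte content of each sample as its base. All leukocytes carry Ptprc, and neutrophil genes had a summed FPKM of 5237 in PBS 2 against at most 1524 in the other sarcomas. The part of other leukocytes in these ratios was not tested. Relative to Ptprc, both ATO sarcomas lay above both PBS sarcomas in 5 of 9 genes (Cd3d, Cd4, Nkg7, Pdcd1 and Cd274), against 8.15% of all genes. Both lay below them in 0 of 9, against 5.35%. By CPM the share of all genes above was 19.7%, so the scale itself lowered it. Ptprc was lowest in PBS 1 and highest in PBS 2, and all 9 genes were likewise lowest in PBS 1. The scale thus acts differently on them than on most genes, and 5 of 9 beside 8.15% is a description only. Per kilobase, Cd4 reached 82.8% and 40.8% of Ptprc in ATO 1 and ATO 2 but 10.3% and 5.52% in PBS 1 and PBS 2. Nkg7 reached 111% and 18.3% in ATO and 3.04% and 5.80% in PBS. Cd3d reached 15.1% and 10.6% in ATO and 0.766% and 5.98% in PBS, where the first value rests on 1 count. Pdcd1 reached 8.04% and 12.2% in ATO and 0% and 2.06% in PBS. Cd274 reached 43.2% and 329% in ATO and 36.8% and 30.2% in PBS, so that ATO 1 lay close to PBS 1. For Cd3e the range was 3.06% to 8.29%, for Prf1 2.39% to 6.01% and for Gzmb 2.90% to 18.5%, with overlap between the groups. These values share their denominator, so that the comparisons are not independent of each other.

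**Figure D4:**
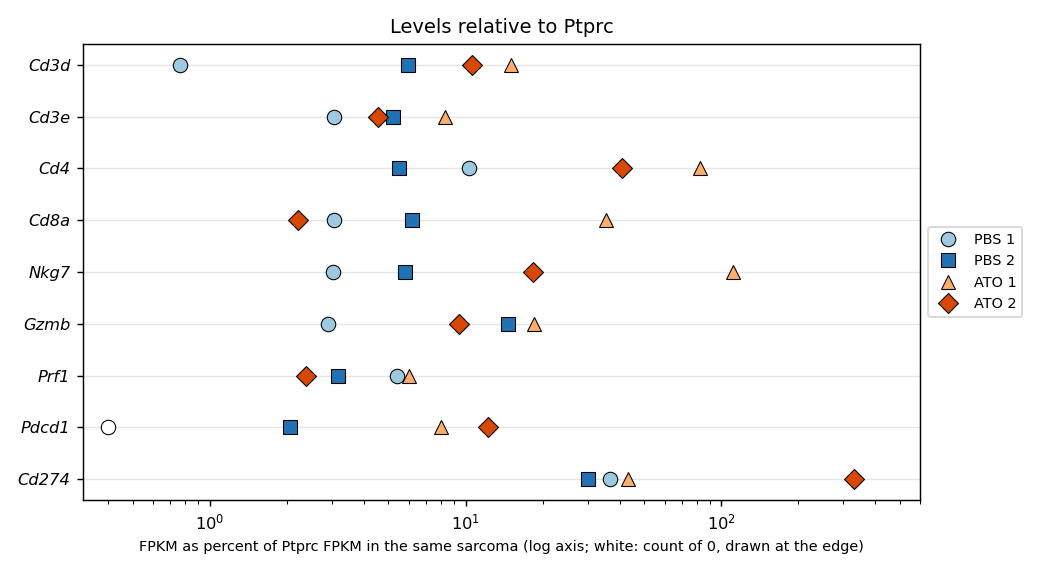
FPKM of 9 genes as a percentage of the FPKM of Ptprc in the same sarcoma (log axis, 1 symbol per sarcoma, a count of 0 drawn in white at the edge). Cd4 lies at 40.8% and 82.8% in ATO and at 5.52% and 10.3% in PBS, while the groups overlap for Cd3e, Cd8a, Gzmb and Prf1.

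T cell markers (8 genes) had a summed FPKM of 1.11 in PBS 1, 12.9 in PBS 2, 10.4 in ATO 1 and 10.5 in ATO 2, low beside those of myeloid cells. Markers of other cell types moved with these genes, and their part in the results was not tested. Macrophage genes did not share the low values of PBS 1, since 0 of 9 were lowest there and their summed FPKM was 2592 in PBS 1, 1149 in PBS 2, 1556 in ATO 1 and 6314 in ATO 2. Lyz2, the lysozyme of myeloid cells, had an FPKM of 5115 in ATO 2 and between 594 and 1497 in the others, while C1qa and C1qb, complement genes of tissue macrophages, had 343 and 443 in ATO 2, 126 to 360 and 156 to 383 in the others. B cell and plasma cell genes were lowest in PBS 1 in 8 of 8, against 28.4% of all genes tested, the share that applies to each such count in this paragraph. Their summed FPKM was 2.28 in PBS 1, 73.4 in PBS 2, 274 in ATO 1 and 4017 in ATO 2. Igkc, the constant region of the kappa light chain, reached an FPKM of 3357 in ATO 2, where Cd274 was also highest, against 0.11 in PBS 1, and Ighm and Jchain reached 563 and 85.6. Neutrophil genes were highest in PBS 2 in 5 of 6, a position whose share over all genes was not computed. Their summed FPKM was 5237 there and between 132 and 1524 in the others. In PBS 2 Ptprc, Cd3e, Gzmb and Prf1 were also highest. S100a9, S100a8 and Csf3r led this list, with an FPKM of 3321, 1586 and 215 in PBS 2. Dendritic cell genes (Itgax, Zbtb46 and Clec9a leading) were lowest in PBS 1 in 4 of 4 tested, with a summed FPKM of 2.87 there and 6.47 to 18.7 in the others. Mast cell genes (Kit, Mcpt4 and Cma1 leading) were lowest in PBS 1 in 6 of 6, with a sum of 3.16 against 33.3 to 51.5. Erythroid genes (Hbb-bs, Hba-a1 and Alas2 leading) were lowest there in 4 of 4, with a sum of 269 against 1001 to 17820.

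Fat and muscle genes separated the groups in the direction of Cd4, as did part of the mast cell, B cell and plasma cell genes. Adipocyte genes (Fabp4, Cidec, Adipoq, Plin1 and Lep) lay above both PBS sarcomas in both ATO sarcomas in 5 of 5, against 19.7% of all genes tested. Their summed FPKM was 12.7 and 66.2 in PBS and 229 and 1369 in ATO. Lep, which encodes leptin, was at a count of 0 in both PBS sarcomas. Skeletal muscle genes (Acta1, Tnnt3 and Myh4 leading) were likewise above in both ATO sarcomas in 6 of 6, with a sum of 6.10 and 111 in PBS and 12960 and 942 in ATO. By CPM this order also held in 5 of 6 mast cell genes and in 4 of 8 B cell and plasma cell genes. Kit, the other mast cell gene, was highest in PBS 2, with an FPKM of 23.15. The treatment and the tissue makeup of the samples cannot be told apart with 2 sarcomas per group.

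**Figure D5:**
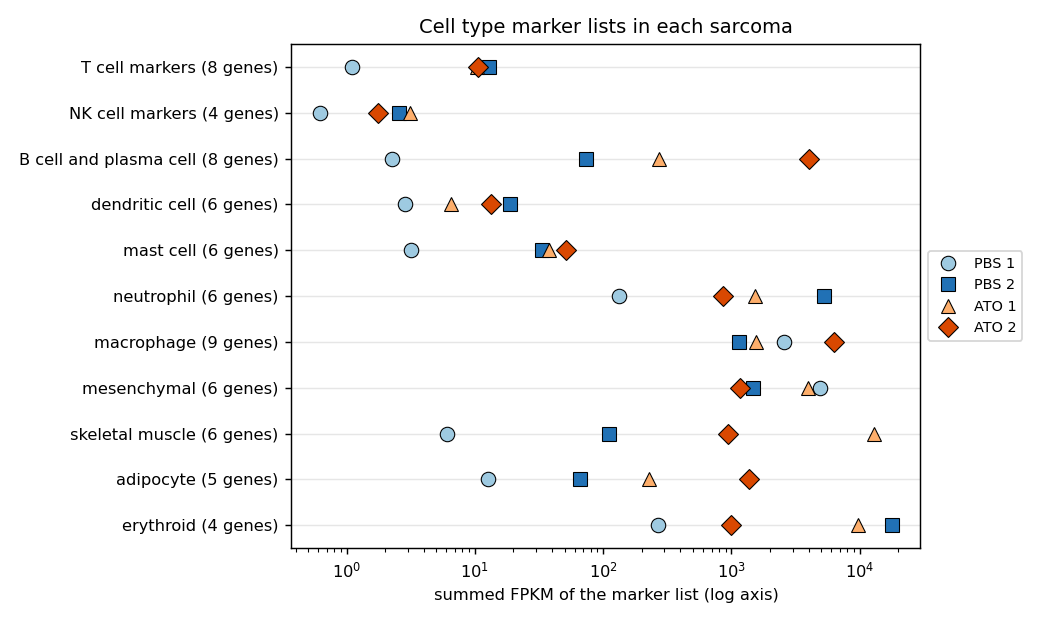
Summed FPKM (log axis) of 11 marker lists in each sarcoma. PBS 1 is lowest for every list except macrophage and mesenchymal genes, and the ATO sarcomas lie above both PBS sarcomas for B cell and plasma cell, mast cell, skeletal muscle and adipocyte genes.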

How the data were processed

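RNA-seq of 4 sarcomas of W/+ mice was analysed, grouped by the treatment in the sample titles. The authors trimmed reads with cutadapt 1.9.1, aligned them to GRCm38 with HISAT2 2.0.1 and deposited HTSeq counts per gene without normalization. The authors also deposited FPKM, which the counts, exonic sizes and total counts gave back to within 0.0051 in 100% of values. The labels name another RNA extraction and library kit than the methods. The strand setting is not given in the sources used here. Only 2.76% of 52073 shared genes have the table's position in GENCODE M21 (GRCm38), so positions were taken from M21 by identifier.

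Counts were tested with edgeR 4.0.16 (filterByExpr with a minimum count of 10, TMM, quasi-likelihood F-test, Benjamini-Hochberg adjustment, threshold 0.05) in R 4.3.3, over 17188 genes that held at least 99.49% of counts. The scripts were tested on simulated counts. Alternatives were DESeq2 1.42.0, other scalings and filters, robust estimation, a block for the replicate number, omission of single sarcomas, and limma 3.58.1 on log2 FPKM with pseudocounts of 1 and 0.1. The 10 genes and all lists were chosen with earlier results of these data known. Genes named were the 10, every gene of a list of at most 5, the 3 with the highest mean FPKM of a longer list with any past the threshold, and the 5 nearest profiles of Ptprc and Cd3e. The log2 fold change is ATO minus PBS. Of the 2639 genes without a symbol, each was tested by its identifier. Values of some genes that this rule names are not reported here.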

Additional observations from a re-analysis of the deposited data

How the results depend on the processing

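The spread between 2 sarcomas per group limits every comparison (biological coefficient of variation 62.5%). DESeq2 called 754 genes and edgeR on unfiltered genes 541, against 0 in edgeR as reported, in limma and with each sarcoma omitted. Of the 10 genes, 1 (Cd4) passed in DESeq2 and 0 in the other alternatives. Of the related genes, 2 of 75 tested (Cd276 among them) passed in DESeq2, against 4.13% of all genes it tested. The same 2 of 75 passed when edgeR had no filter, against 541 of 30859 genes. The cause was not tested.

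The number of genes fitted higher in ATO was 3 of the 5 tested with a mean FPKM of at least 1 in edgeR, and in limma, where 5 were also tested, 3 on log2(FPKM + 1), 4 on log2(FPKM + 0.1) and 5 with median-of-ratios scaling. It was 9 of 10 with the replicate block. Omitting single sarcomas gave 5 to 10. The median log2 fold change was 2.66 with a mean FPKM of at least 1 and 0.018 to 3.53 on omitting single sarcomas, where 1 group holds a lone sarcoma assumed to vary like the others. The number with both ATO sarcomas above both PBS sarcomas was 5 of 9 relative to Ptprc, an added scale. The share over all genes was 8.15%, and the count is a description only.

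Some directions turned. With DESeq2 size factors Cd3e had 0.0085. With the replicate block Cd3e had 0.62, Gzmb 0.85 and Ptprc 0.056. In limma, Gzmb had 0.47 with a pseudocount of 0.1 and 0.089 with median-of-ratios scaling, and Ptprc 0.019 with that scaling. On omitting single sarcomas, the ranges were -0.45 to 4.01 for Cd274, -0.0045 to 5.10 for Cd3d, -0.86 to 2.20 for Cd3e, -1.18 to 3.36 for Cd8a, -1.25 to 3.34 for Gzmb, -0.84 to 0.71 for Prf1 and -1.01 to 1.32 for Ptprc. Cd4, Nkg7 and Pdcd1 kept their sign in each alternative that gave them a value. Both groups are numbered 1 and 2, but neither the labels nor the methods say that a number pairs sarcomas, and the correlation of deviations of same-numbered sarcomas was 5e-05. With the block 0 genes passed.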
